A study of Homo sapiens with 16 samples.

Results

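The comparison described here sets drug-treated anaplastic large cell lymphoma (ALCL) lines against drug-treated T-cell leukaemia or lymphoma lines. It uses 8 of the 16 arrays of the series, chosen by the cell line and the treatment named in their labels. The first group of n = 4 arrays holds the ALCL lines Karpas 299, SU-DHL-1, JB6 and FE-PD, and the other group of n = 4 holds the T-cell lines Jurkat, CCRF-CEM, Molt-4 and Molt-3. Both groups had the same exposure: 5-aza-2'-deoxycytidine at 1 µM over 6 days, joined for the last 24 hours by trichostatin A at 625 nM. The other 8 arrays carry the same 8 lines without either drug and serve as the background. Total RNA was hybridised to Affymetrix human gene expression arrays, and expression is given as log2 RMA (robust multi-array average) values, so a difference of 1 is a 2-fold difference. By its title the series asks whether the drugs move T-cell lines toward an ALCL-like state. The question here is which genes still separate the cell types, and which newly do, once both have been treated.

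ALCL is a lymphoma of mature T cells that carries the receptor CD30, often with an ALK fusion, and makes cytotoxic granule proteins while much of the T-cell receptor machinery is silent. The T-cell lines stem from immature T cells and keep that machinery. 5-aza-2'-deoxycytidine must be phosphorylated by deoxycytidine kinase and built into DNA during replication, where it traps DNA methyltransferases, so methylation is lost as cells divide. Trichostatin A blocks histone deacetylases and can open chromatin around silent genes, and both drugs can also stop cells from dividing.

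Each line was hybridised once per condition, so the replicates are lines and the p-values measure the spread between 4 lines of a type. Nothing in the labels says that any line was cultured and treated more than once. Molt-3 and Molt-4 are known to come from the same patient. Some markers of the cell types were still called between the groups after treatment, and others were not. The granule genes GZMB and PRF1 were above 11 in each treated ALCL line and below 8 in each treated T-cell line. CD3E was below 8 in each treated ALCL line and above 8 in each treated T-cell line. TNFRSF8, IL2RA, ALK, CD3G, LEF1 and ZAP70 were not called after treatment, although the TNFRSF8 values did not overlap. Of 26 T-cell surface markers 0 were called lower in ALCL. Over all genes 1.53% were, so that count is no result about the markers. FE-PD lacked the ALK signal of the other ALCL lines, with 6.41 against 9.51 in JB6, 9.78 in SU-DHL-1 and 9.43 in Karpas 299. The 28S ribosomal RNA control probe sets gave 6.81 to 8.15 on the treated arrays of Jurkat, CCRF-CEM and Karpas 299 and 12.1 to 14.3 on the other 5 (Molt-4, Molt-3, SU-DHL-1, JB6 and FE-PD). This signal, the hybridisation spikes, the 3' minus 5' signal of ACTB and GAPDH, and the SD and median of the array overlapped between the treated groups (2-sided exact permutation p from 0.371 to 1 over 6 measures). The smallest p possible, 0.0286, could not pass adjustment over 6 measures for 1 measure alone, so these tests cannot show that the arrays were alike. The hybridisation spikes averaged 9.36 in ALCL and 9.78 in T-cell lines, a difference of -0.42. Treated and untreated arrays did differ in several of these measures. The array SD was 1.60 to 1.81 treated and 1.83 to 1.94 untreated. The 3' minus 5' signal was higher on each line's treated array for GAPDH, and for ACTB in each but Karpas 299. The 28S control gave 6.60 to 7.62 on untreated arrays, so it rose on the 5 treated arrays named above (the 28S rise). The part of these in the treated against untreated comparisons was not tested.

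Treated ALCL and treated T-cell lines differed at 345 of 11963 genes, which is 2.88% of those tested (limma, Benjamini-Hochberg adjusted p below 0.05). ALCL lines were higher at 162 of them (1.35%) and lower at 183 (1.53%). The high side held the larger differences: 73 genes were at least 4-fold higher and 13 at least 16-fold higher in ALCL lines, against 24 and 1 lower. The 4 and 4 values did not overlap for 1210 genes, 10.1% of all, with 510 higher and 700 lower in ALCL lines. An unadjusted p below 0.05 was reached by 1898 genes, and the median difference over all genes was -0.03. The 5 genes just inside the threshold had adjusted p from 0.0494 to 0.0497, and the 5 just outside from 0.0501 to 0.0505.

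The same lines differed at 1048 genes (8.76%) without the drugs, 380 higher and 668 lower in ALCL. Of the 162 genes higher in treated ALCL, 96 (59.3%) were also called without the drugs, and of the 183 lower genes 91 (49.7%). Counted the other way, 96 of the 380 genes high in untreated ALCL (25.3%) and 91 of the 668 low ones (13.6%) were called after treatment. No gene was called in opposite directions, and 371 of the 380 and 631 of the 668 kept the sign of their difference. The median SD per gene was 0.309 among treated ALCL lines and 0.258 among treated T-cell lines, against 0.260 and 0.179 untreated, while an SD above 1 was less frequent, at 396 and 126 genes against 480 and 234. Whether the difference itself moved with treatment was tested by the interaction, which compares the treated with the untreated ALCL minus T-cell difference and keeps each line as its own control. It was called at 201 genes (1.68%). At 133 of these the ALCL minus T-cell difference moved up, and 91 of the 133 had been lower in untreated ALCL. At 68 it moved down, and 38 of the 68 had been higher in untreated ALCL. Its count was 67 without Molt-3, 88 without Molt-4 and 74 with these lines averaged into 1. Of the 284 high and 577 low genes called only without the drugs, the interaction called 31 and 82. Of the 66 high and 92 low genes called only after treatment, it called 16 and 20. Being called in 1 condition alone is thus not a called change. The interaction shares its arrays with both comparisons, and its values are given beside theirs.

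The treated count fell from 345 to 130 without Molt-3, 217 without Molt-4, 203 without CCRF-CEM and 181 with Molt-3 and Molt-4 averaged into 1 line. Its split moved with the scaling of the arrays: 47.0% of called genes were higher in ALCL as deposited, and 92.8% of 293 when arrays were centred on the hybridisation spikes, which moved the median difference over all genes from -0.03 to 0.39.

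**Figure D1:**
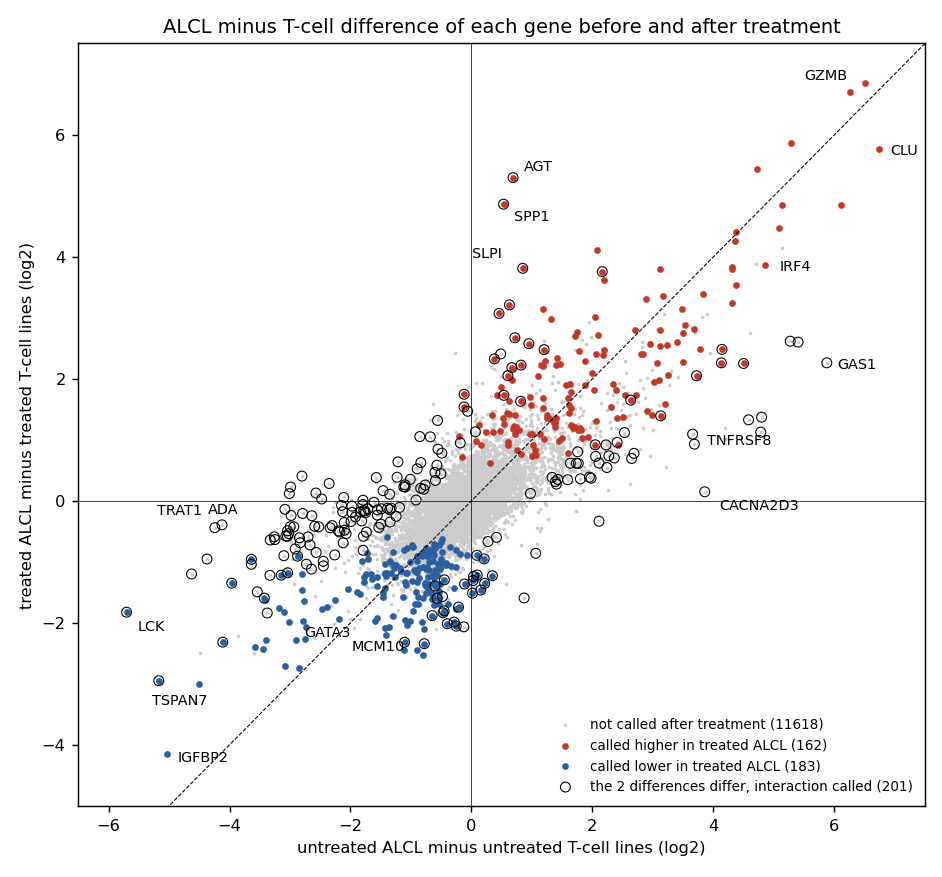
Each point is 1 of 11963 genes, with the ALCL minus T-cell difference (log2) of untreated lines on the horizontal axis and of treated lines on the vertical axis; red and blue mark the 162 genes called higher and the 183 called lower in treated ALCL, rings mark the 201 genes called by the interaction, and the dashed line marks equal differences. GZMB, CLU and IRF4 lie far up along the dashed line, AGT, SPP1 and SLPI near 0 untreated and high after treatment, and LCK, TRAT1, ADA, GAS1 and CACNA2D3 far from 0 untreated and nearer to it after treatment.

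The genes that separated the treated cell types most were a granule protease and a protease inhibitor on the ALCL side and a growth factor binding protein and a membrane protein of thymocytes on the T-cell side. Their promoter windows are shown because 5-aza-2'-deoxycytidine acts on the methylation of CG pairs; methylation itself was not measured here. The sequences are RefSeq's on GRCh38.p14, from 250 bases before to 50 bases after the gene start, read 5′ to 3′ along the gene's strand, with each CG pair in capitals. Where a gene has several starts, the window with the most CG pairs is printed.
GZMB (chr14:24634141-24634440, minus strand): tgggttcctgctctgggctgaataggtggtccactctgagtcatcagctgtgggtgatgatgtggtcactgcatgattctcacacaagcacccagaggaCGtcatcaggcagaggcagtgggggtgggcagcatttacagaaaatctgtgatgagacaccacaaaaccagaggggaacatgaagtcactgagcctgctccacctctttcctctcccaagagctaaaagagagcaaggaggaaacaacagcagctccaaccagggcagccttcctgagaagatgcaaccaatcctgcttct
SERPINA1 (chr14:94388553-94388852, minus strand): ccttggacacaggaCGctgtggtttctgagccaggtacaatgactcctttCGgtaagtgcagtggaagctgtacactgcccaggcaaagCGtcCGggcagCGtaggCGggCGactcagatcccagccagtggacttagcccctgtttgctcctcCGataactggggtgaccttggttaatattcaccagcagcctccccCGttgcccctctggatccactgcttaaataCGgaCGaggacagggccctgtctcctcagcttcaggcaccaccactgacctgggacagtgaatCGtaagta
IGFBP2 (chr2:216633170-216633469, plus strand): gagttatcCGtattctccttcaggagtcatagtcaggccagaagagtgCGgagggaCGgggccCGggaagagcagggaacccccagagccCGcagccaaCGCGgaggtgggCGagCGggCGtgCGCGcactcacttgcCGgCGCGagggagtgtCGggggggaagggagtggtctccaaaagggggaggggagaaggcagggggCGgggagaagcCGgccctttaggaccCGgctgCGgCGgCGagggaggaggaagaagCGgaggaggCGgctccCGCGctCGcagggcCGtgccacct
ITM2A (chrX:79367285-79367584, minus strand): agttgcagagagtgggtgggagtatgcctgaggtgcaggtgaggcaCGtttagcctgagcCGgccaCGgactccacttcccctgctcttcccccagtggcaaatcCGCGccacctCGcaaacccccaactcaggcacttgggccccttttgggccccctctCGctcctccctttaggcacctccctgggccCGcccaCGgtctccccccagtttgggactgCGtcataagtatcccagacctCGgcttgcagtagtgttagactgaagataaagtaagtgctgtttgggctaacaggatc
The GZMB window held 1 CG pair, ITM2A 11, SERPINA1 12 and IGFBP2 28, where the median over the 9562 tested genes with a window of this length was 26. Windows were matched for 74.1% of the genes higher in ALCL, 85.8% of those lower and 79.9% of all genes. Because this share differed between the sets, no result is drawn from the CG content of called and other genes.

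GZMB encodes granzyme B, the protease that cytotoxic cells inject into their targets. After treatment it stood at 11.59 in FE-PD, 12.80 in JB6, 12.08 in SU-DHL-1 and 12.39 in Karpas 299, against 5.54 in CCRF-CEM, 5.20 in Jurkat, 5.41 in Molt-3 and 5.31 in Molt-4. The groups lay far apart, with every T-cell line near the bottom of the scale. The difference was 6.85 ± 0.24 (standard error), or 116-fold, with a limma adjusted p of 3.30e-06, and it was 6.52 ± 0.42 without the drugs. PRF1, the pore-forming perforin, stood at 11.20 in FE-PD, 12.33 in JB6, 12.58 in SU-DHL-1 and 13.03 in Karpas 299, and at 7.13 to 7.61 in T-cell lines (4.84 ± 0.35, adjusted p = 0.00024). SRGN, the proteoglycan that packs granule contents, was higher by 2.89 ± 0.24. These were the 3 genes called among 15 measured cytotoxic granule genes (20%, against 2.88% of all genes), all higher. At an unadjusted p below 0.05, 6 of the 15 were higher and 0 lower. The list's median difference was 0.38, against -0.03 over all genes, and 5 were called without FE-PD. The members of this list and of those below were chosen with earlier results of these data known. Their shares beside that of all genes are therefore descriptions and give no independent evidence.

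Inhibitors of proteases were also among the highest genes. SERPINA1, alpha-1-antitrypsin, stood at 11.54 in FE-PD, 12.53 in JB6, 13.51 in SU-DHL-1 and 13.22 in Karpas 299 and at 5.84 to 6.16 in T-cell lines, a 105-fold difference (6.71 ± 0.38, adjusted p = 7.14e-05). Of its 3 probe sets, 1 did not show it (-0.13). SERPINB1, an inhibitor of neutrophil proteases, was 43.3-fold higher and TIMP1, which blocks matrix metalloproteases, 58.6-fold higher. FE-PD had the lowest TIMP1 of the ALCL lines, 11.74 against 13.95 to 14.42 in the others, and still stood above the highest T-cell line at 8.40. With SLPI, described below, 4 of 18 measured inhibitors (22.2%, against 2.88% of all genes) were called, all higher. At an unadjusted p below 0.05, 7 were higher and 1 lower, and the list's median was 0.13.

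CLU, the secreted chaperone clusterin, was 54.4-fold higher (5.77 ± 0.57, adjusted p = 0.00123). The ALCL lines were close together at 12.71 to 13.46, while the T-cell lines split, with 8.82 in CCRF-CEM and 8.13 in Jurkat against 6.31 in Molt-3 and 6.10 in Molt-4. IL1R2, the decoy receptor that soaks up interleukin-1, stood at 10.56 in FE-PD, 10.02 in JB6, 10.68 in SU-DHL-1 and 12.31 in Karpas 299 against 5.83 to 6.37 (4.86 ± 0.43). IRF4, a transcription factor of activated lymphocytes, differed by 3.87 ± 0.24 (adjusted p = 9.28e-05), with ALCL lines at 10.50 to 11.42 and T-cell lines at 6.65 to 7.35. Of its 3 probe sets 1 was called, and the lowest differed by 0.069. SOCS3, which feeds back on cytokine signalling through STAT3, was 5.54-fold higher by the probe set used, and its 3 probe sets ranged from 0.20 to 4.78. These belong to 39 measured genes known as marks of ALCL, of which 9 (23.1%) were called higher and 0 lower, against 2.88% of all genes called. At an unadjusted p below 0.05, 25 of the 39 were higher and 0 lower, and the list's median was 1.33. That list was partly drawn from what is known of such cells, these lines included, and its count gives no independent evidence of direction. Without the drugs 23 of the 39 were called, with a median of 1.98.

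JUNB, an AP-1 subunit that ALCL cells make in large amounts, stood at 11.30 in FE-PD, 11.55 in JB6, 11.36 in SU-DHL-1 and 11.97 in Karpas 299. The T-cell lines lay lower, at 8.84 in CCRF-CEM, 8.15 in Jurkat, 8.87 in Molt-3 and 7.73 in Molt-4, an 8.86-fold difference (3.15 ± 0.28, adjusted p = 0.000841). BHLHE40, a repressor induced by stress and activation, was 21.2-fold higher. DUSP1, a phosphatase that shuts off MAP kinases, was 8.83-fold higher, and ZFP36, which destroys cytokine mRNAs, 5.58-fold higher. In all 7 of 30 measured AP-1 and immediate early genes (23.3%, against 2.88% of all genes) were called higher and 0 lower. Without SU-DHL-1, Molt-3 or Molt-4 the count was 4. At an unadjusted p below 0.05, 15 of the 30 were higher and 0 lower, and the list's median was 0.62. JUN itself was not called: it differed by 0.93 ± 0.46 (adjusted p = 0.379), with overlapping ranges of 8.42 to 10.30 and 7.88 to 9.41. Other genes high on the ALCL side were PERP, a p53 target at cell junctions (3.83 ± 0.38), and G0S2, an inhibitor of fat breakdown (4.26 ± 0.59).

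Other genes separated the cell types after treatment although the untreated difference was small. AGT, the precursor of angiotensin, stood at 9.03 in FE-PD, 12.68 in JB6, 12.77 in SU-DHL-1 and 11.54 in Karpas 299 after treatment. The treated T-cell lines stayed at 6.03 to 6.41, and untreated arrays lay at 6.13 to 7.47 in ALCL and 5.71 to 6.20 in T-cell lines. The treated difference was 5.30 ± 0.71 (adjusted p = 0.00596), the untreated one 0.69 ± 0.29 and the interaction 4.61 ± 0.70 (adjusted p = 0.0124). SPP1, the secreted cytokine osteopontin, stood at 9.30 in FE-PD, 9.55 in JB6, 12.29 in SU-DHL-1 and 10.69 in Karpas 299 and in treated T-cell lines at 5.35 to 5.88. Its difference was 4.87 ± 0.57 after treatment and 0.53 ± 0.38 before, an interaction of 4.33 ± 0.33 (adjusted p = 0.000273). FE-PD was the lowest ALCL line for both genes, and JB6 and SU-DHL-1 were the highest for AGT.

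SLPI, a secreted inhibitor of leukocyte proteases, reached 10.14 to 12.01 in treated ALCL lines and 7.01 to 7.78 in treated T-cell lines (3.81 ± 0.38; interaction 2.96 ± 0.29, adjusted p = 0.00092). S100P, a calcium-binding protein, was at 7.58 to 8.13 against 6.13 to 6.55 (interaction 1.66 ± 0.20, called as deposited but not with spike scaling). CD44, the hyaluronan receptor, differed by 2.33 ± 0.41 after and 0.38 ± 0.57 before treatment (interaction 1.95 ± 0.29, adjusted p = 0.0119). It was picked after its values were seen, its treated call was lost without Molt-4, Molt-3 or Jurkat, and 1 of its 8 probe sets differed by -0.28. CCNA1, the cyclin A of germ cells, was 17.4-fold higher in treated ALCL. Its untreated values did not overlap either, with a difference of 2.08 ± 0.81 that was not called (adjusted p = 0.157), and its interaction of 2.04 ± 0.80 was not called (adjusted p = 0.311). NDRG1, a stress and hypoxia gene, differed by 2.99 ± 0.34 after treatment and 1.32 ± 0.60 before (interaction adjusted p = 0.0524), and CD99, an adhesion molecule of T cells, by 1.06 ± 0.17 and -0.20 ± 0.34 (interaction adjusted p = 0.0892).

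IFI16, a sensor of foreign DNA induced by interferon, differed more after treatment, while its level was below the untreated one in both types. Untreated ALCL lines lay at 11.15 to 11.83 and T-cell lines at 10.62 to 11.08, which did not overlap, but the difference of 0.63 ± 0.18 was not called (adjusted p = 0.0697). After treatment ALCL lines stood at 10.36 in FE-PD, 9.64 in JB6, 10.22 in SU-DHL-1 and 10.24 in Karpas 299, and T-cell lines at 7.44 in CCRF-CEM, 6.78 in Jurkat, 6.97 in Molt-3 and 6.42 in Molt-4. The T-cell lines were the ones far from their untreated values, and the treated difference of 3.21 ± 0.25 (adjusted p = 0.000367) carried an interaction of 2.59 ± 0.30 (adjusted p = 0.00283).

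**Figure D2:**
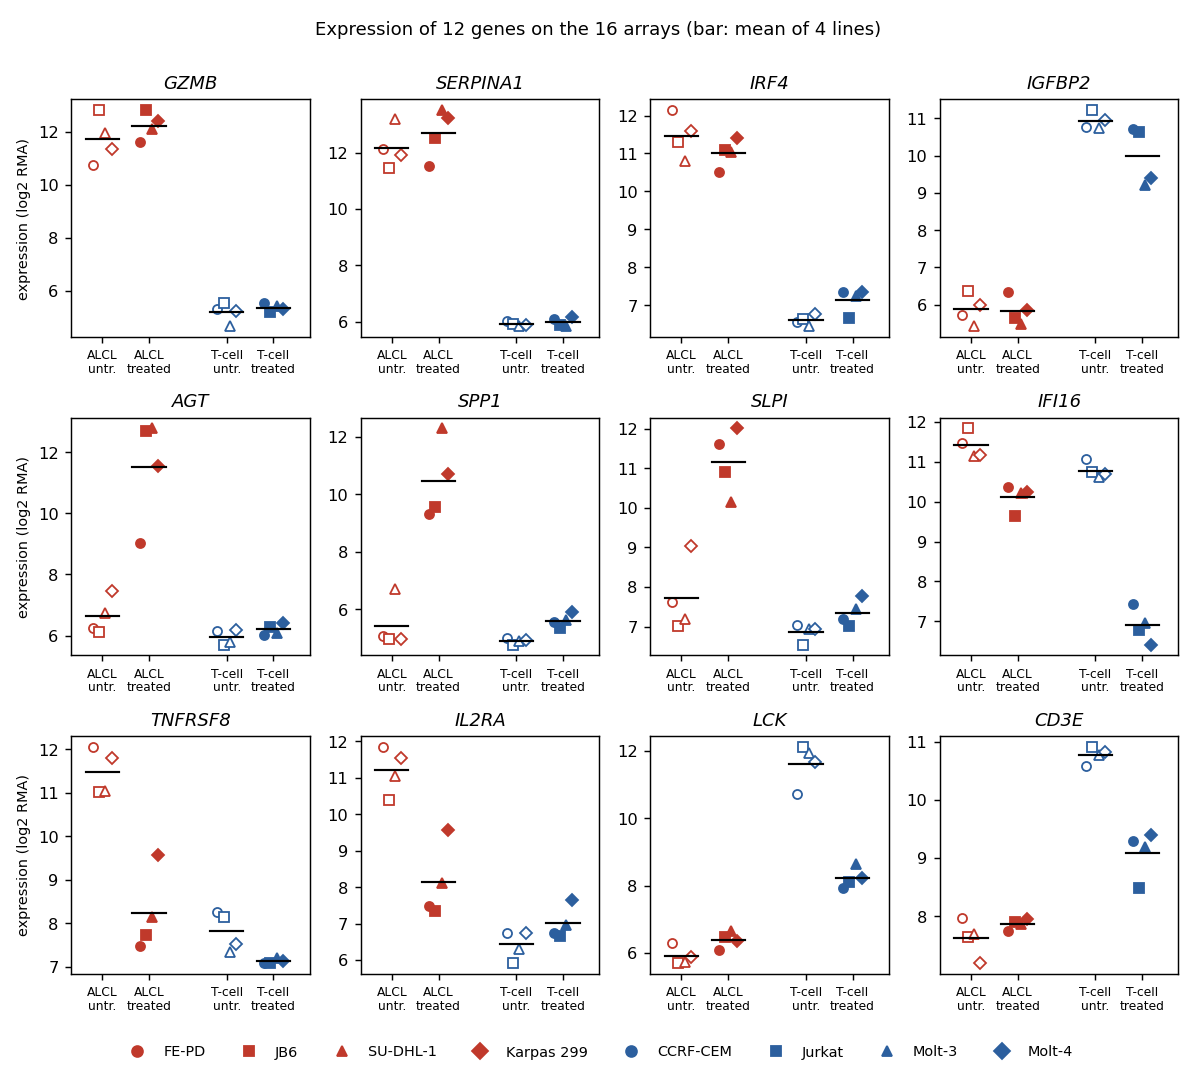
Expression (log2 RMA) of 12 genes on each array, with ALCL lines in red, T-cell lines in blue, open symbols untreated, filled symbols treated, 1 symbol shape per line and bars at the mean of 4 lines. GZMB, SERPINA1, IRF4 and IGFBP2 were separated in both conditions, AGT, SPP1, SLPI and IFI16 stood further apart after treatment than before, and TNFRSF8, IL2RA, LCK and CD3E stood closer together after treatment than before.

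A few genes of the T-cell programme were still lower in treated ALCL, and for several the difference had become smaller. LCK, the kinase that starts signalling from the T-cell receptor, stood at 6.08 in FE-PD, 6.47 in JB6, 6.65 in SU-DHL-1 and 6.37 in Karpas 299, against 7.92 in CCRF-CEM, 8.09 in Jurkat, 8.63 in Molt-3 and 8.24 in Molt-4. The groups did not overlap, and the difference of -1.83 ± 0.20 (adjusted p = 0.00187) compared with -5.70 ± 0.30 untreated, an interaction of 3.88 ± 0.31 (adjusted p = 0.000356). Untreated T-cell lines had stood at 10.70 to 12.12, and ALCL lines at 5.71 to 6.29. CD3E, a chain of the receptor's signalling complex, was lower in treated ALCL by -1.22 ± 0.21 (adjusted p = 0.0156; interaction 1.93 ± 0.29). Its sister chain CD3G differed by -0.58 ± 0.20 and was not called (adjusted p = 0.187), against -3.07 ± 0.17 untreated (interaction 2.49 ± 0.25, adjusted p = 0.00131). TRAT1, an adaptor of the same complex, stood at 4.12 to 4.55 and 4.15 to 5.18 after treatment, overlapping ranges, where untreated T-cell lines had been at 7.71 to 8.47 (interaction 3.73 ± 0.23, adjusted p = 0.000177). ZAP70, the kinase downstream of LCK, differed by -0.21 ± 0.23 (adjusted p = 0.745), and PRKCQ, the protein kinase C of the synapse, by -0.72 ± 0.18 (adjusted p = 0.0734).

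Among lineage transcription factors, GATA3, which commits cells to the T lineage, was 3.98-fold lower in treated ALCL, with 7.89 in FE-PD, 8.16 in JB6, 8.72 in SU-DHL-1 and 7.54 in Karpas 299 against 9.80 in CCRF-CEM, 10.45 in Jurkat, 10.39 in Molt-3 and 9.63 in Molt-4 (-1.99 ± 0.29, adjusted p = 0.00801). BCL11B, which holds that commitment, was lower by 2.55-fold (adjusted p = 0.0285), and its difference was -1.35 ± 0.26 after and -3.96 ± 0.37 before treatment (interaction 2.61 ± 0.24). MYB, a factor of immature blood cells, was 2.3-fold lower (adjusted p = 0.04), though its second probe set differed by -0.0089. LEF1 differed by -2.21 ± 0.51 with no call (adjusted p = 0.0537), with 7.71 in FE-PD and 7.53 in SU-DHL-1 against 5.84 in JB6 and 5.38 in Karpas 299. Its 3 probe sets ranged up to 0.037. TOX, needed for early T-cell development, stood at 3.90 to 5.10 against 5.11 to 6.22, with T-cell lines at 8.70 to 9.01 untreated (interaction 3.42 ± 0.32, adjusted p = 0.000727). The treated difference of TOX was not called, and its 2 probe sets differed by -0.95 and -0.041. RAG1, a subunit of the recombinase that cuts receptor genes, and ADA, which clears deoxyadenosine in thymocytes, were not called after treatment (-0.24 ± 0.17 and -0.44 ± 0.30, both adjusted p = 0.574) but were -2.98 ± 0.45 and -4.24 ± 0.39 before, with interactions of 2.74 ± 0.40 and 3.80 ± 0.31. The call of CD3E was lost without CCRF-CEM or Molt-3, and those of BCL11B and MYB each without any of 6 lines, Molt-4, Molt-3, SU-DHL-1 and JB6 among them; these 3 and LCK were also lost with spike scaling.

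By list, 1 of 7 measured receptor chains (CD3E) was lower in treated ALCL and 0 higher (5 lower untreated; median -0.54 treated and -3.07 untreated). Over all genes 2.88% were called treated and 8.76% untreated. Of 17 genes of proximal receptor signalling 1 (5.88%) was lower and 0 higher, where 10 were lower untreated. Their median was -0.18 (-1.55 untreated), and it turned to 0.24 with spike scaling. In the list of 25 transcription factors of the T lineage 3 members were lower and 0 higher, against 9 lower untreated, with a median of -0.26 that turned to 0.16 with spike scaling; 1 was left without JB6, Molt-3 or Molt-4, and 2 without any other line but FE-PD. In limma 0 of 4 recombination genes were called after treatment, also 0 at an unadjusted p below 0.05, against 3 lower untreated. The treated share of T-cell surface markers called, 3.85%, was near that of all genes and is no result about them. Of 26 measured T-cell surface markers 0 were lower and 1, CD99, was higher after treatment (5 and 1 at an unadjusted p below 0.05), where 8 were lower untreated. Their median was -0.11 (-0.58 untreated), and 0.31 with spike scaling. For the other lists the interaction called 4, 7, 4 and 2 members in the order given, each upward, and 5 surface markers upward. Over all genes the interaction called 201 (1.68%), 133 upward and 68 downward. At an unadjusted p below 0.05 the treated comparison held 4, 5 and 8 lower and 0, 1 and 1 higher members of the first 3 lists.

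**Figure D3:**
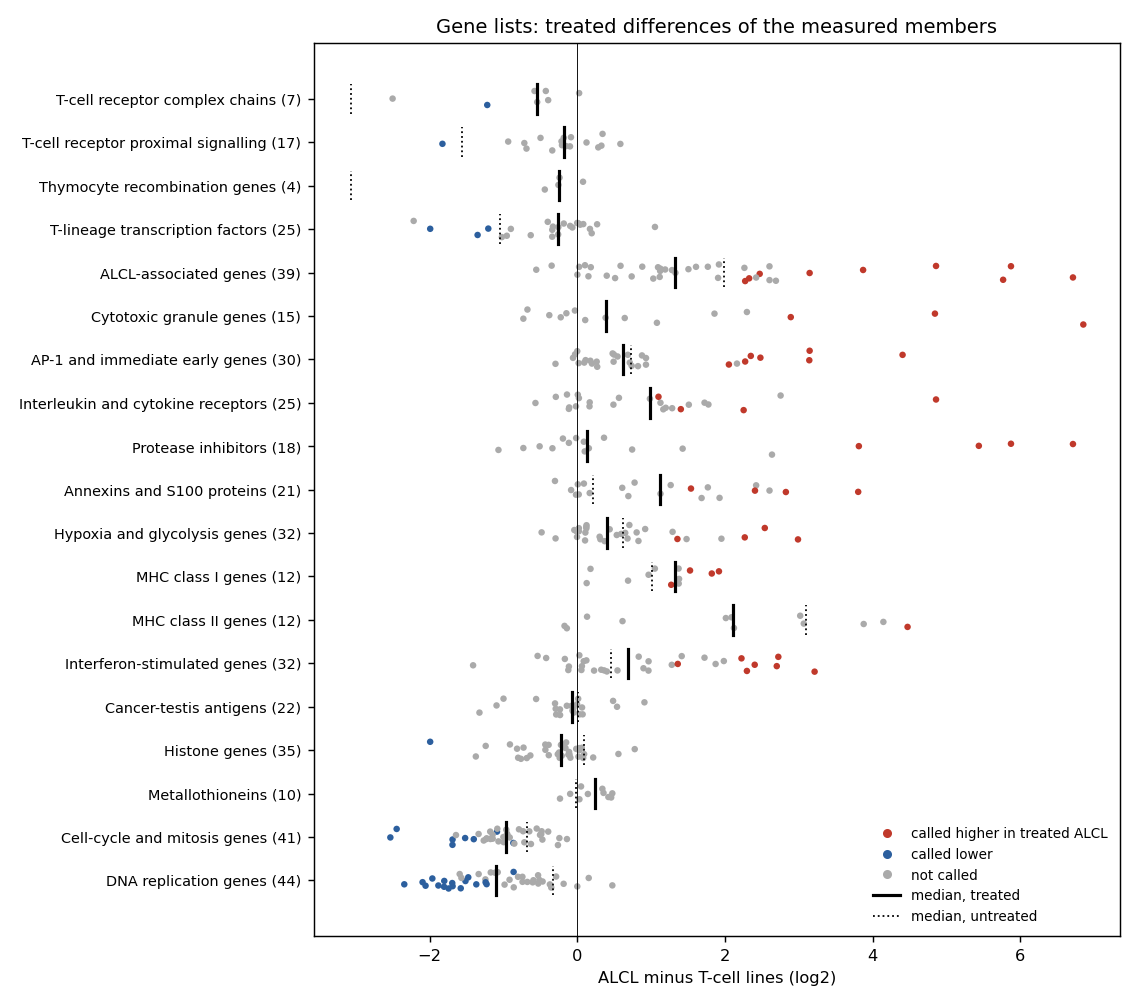
Treated ALCL minus T-cell difference (log2, horizontal axis) of every measured member of 19 gene lists, with the number of measured members in brackets; red points were called higher in ALCL, blue points lower and grey points were not called, and solid and dotted bars mark the median treated and untreated difference. The receptor, signalling and recombination lists have dotted bars well to the left of the solid ones, and the DNA replication list lies to the left of 0 with more blue points than any other list shown.

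Several marks of ALCL were no longer called after treatment. TNFRSF8, which encodes CD30, stood at 7.48 in FE-PD, 7.73 in JB6, 8.13 in SU-DHL-1 and 9.56 in Karpas 299, and T-cell lines at 7.09 to 7.21. No value overlapped, but the ALCL lines were spread over 2 log2 units and the difference of 1.09 ± 0.39 was not called (adjusted p = 0.199). Untreated ALCL lines had a mean of 11.48, a difference of 3.66 ± 0.31, and the interaction was -2.56 ± 0.45 (adjusted p = 0.0214; lost without JB6, Molt-3 or Molt-4). IL2RA, the alpha chain of the interleukin-2 receptor, stood at 7.49 in FE-PD, 7.34 in JB6, 8.12 in SU-DHL-1 and 9.58 in Karpas 299 and 6.67 to 7.65 after treatment, overlapping ranges (1.13 ± 0.46; 4.78 ± 0.33 untreated; interaction -3.66 ± 0.44, adjusted p = 0.00341). IL2RB, the beta chain, was still higher by 2.25 ± 0.46 (adjusted p = 0.0358), down from 4.50 ± 0.34, with an interaction of -2.25 ± 0.35 that was lost without Molt-3. The treated call of IL2RB was lost without any of Molt-4, Molt-3, Jurkat, CCRF-CEM and SU-DHL-1. IL26, an interleukin of activated T cells, stood at 4.00 to 6.75 in treated and 7.52 to 9.10 in untreated ALCL lines, while T-cell lines stayed below 4 (interaction -3.25 ± 0.27, adjusted p = 0.000405).

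LGALS1, the lectin galectin-1, was high in treated ALCL lines and lower, down to 7.73 in Molt-4, in treated T-cell lines. ALCL lines stood at 12.42 in FE-PD, 12.61 in JB6, 11.15 in SU-DHL-1 and 12.65 in Karpas 299, and T-cell lines at 10.58 in CCRF-CEM, 9.89 in Jurkat, 10.23 in Molt-3 and 7.73 in Molt-4. The difference of 2.60 ± 0.60 missed the threshold (adjusted p = 0.0564), compared with 5.40 ± 0.53 untreated (interaction -2.80 ± 0.41, adjusted p = 0.011), and untreated T-cell lines had stood at 5.75 to 8.19. ID2, which blocks the E proteins that drive the T-cell programme, stood at 10.06 to 11.71 and 8.97 to 10.45 (1.19 ± 0.41, adjusted p = 0.178). Its interaction of -3.01 ± 0.93 was not called (adjusted p = 0.175).

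CACNA2D3, a calcium channel subunit, stood at 4.92 to 5.53 in treated ALCL and 4.96 to 5.29 in treated T-cell lines, where untreated ALCL lines had been at 6.81 to 10.04 (interaction -3.71 ± 0.45, adjusted p = 0.00379). GAS1, a growth arrest protein, TNS3, which links integrins to actin, CYTIP, which regulates adhesion, and APOBEC3B, a cytidine deaminase, had interactions of -3.61 ± 0.64, -2.65 ± 0.37, -3.43 ± 0.65 and -2.76 ± 0.42. None of the 4 was called after treatment (adjusted p from 0.0739 to 0.41), and the interactions of GAS1 and CYTIP were lost without Molt-3 or Molt-4, that of CYTIP also without FE-PD, JB6, SU-DHL-1 or Jurkat. Karpas 299 was the highest treated ALCL line for each of these 4 and for TNFRSF8, IL2RA and IL26. Over the 38 genes that were high in untreated ALCL and moved down by the interaction, Karpas 299 was highest at 21 (55.3%) of the treated values and 13 (34.2%) of the untreated ones, where it was the highest treated ALCL line at 22.0% of all genes and at 78 (48.1%) of the 162 genes called higher in treated ALCL. Its treated array was also the one ALCL array without the 28S rise; the part of either in the other was not tested.

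On the T-cell side the persisting genes were led by IGFBP2, which binds insulin-like growth factors. It stood at 10.71 in CCRF-CEM, 10.63 in Jurkat, 9.21 in Molt-3 and 9.39 in Molt-4, and in ALCL lines at 6.34 in FE-PD, 5.64 in JB6, 5.49 in SU-DHL-1 and 5.85 in Karpas 299. The gap of -4.15 ± 0.37 (adjusted p = 0.000841) was the one difference of at least 16-fold on this side with the probe set of highest mean taken for each gene, and it was -5.04 ± 0.21 untreated. ITM2A, a membrane protein that marks activated and developing T cells, differed by -3.01 ± 0.37, with FE-PD the highest ALCL line at 8.98 and Jurkat the lowest T-cell line at 10.43. The second ITM2A probe set was also called and differed by -5.10, more than IGFBP2. TSPAN7, a tetraspanin, and FAT1, a giant cadherin, were lower in ALCL by 7.72-fold and 4.98-fold, with interactions of 2.22 ± 0.27 and 1.80 ± 0.20 upward. PRKCB, the protein kinase C beta of lymphocytes, differed by -2.71 ± 0.32, BEX4, a small brain-expressed protein, by -2.28 ± 0.22, and PNMA2, a neuronal antigen, by -2.74 ± 0.45. Of the 2 PNMA2 probe sets the second differed by 0.15. GNA15, a G protein of blood cells, and ALDH1A2, which makes retinoic acid, had been lower in untreated ALCL by 6.97-fold and 8.06-fold, and differed by 0.41 ± 0.48 and 0.12 ± 0.21 after treatment with no call (interactions 3.21 ± 0.22 and 3.13 ± 0.26). The 2 probe sets of ALDH1A2 differed by 0.12 and -1.41 after treatment.

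Many genes that copy DNA, and some that drive division, were lower in treated ALCL than in treated T-cell lines. Over all 11963 genes 183 (1.53%) were called lower, 1067 were lower at an unadjusted p below 0.05, and 700 lay lower without overlap. Of 44 measured DNA replication genes, 26 had values that did not overlap, all lower in ALCL. Of the 44, 17 (38.6%) were called lower and 0 higher (34 and 0 at an unadjusted p below 0.05). Their median was -1.10, against -0.03 over all genes and -0.32 for the same list untreated, where 4 were lower and 1 higher. The interaction called 11 of the 44, each downward, against 1.68% of all genes called either way. Of 41 measured cell-cycle and mitosis genes 8 were lower and 0 higher (28 and 0 at an unadjusted p below 0.05; median -0.96, untreated -0.68), and the interaction called 0 in limma (0 upward and 7 downward at an unadjusted p below 0.05). The direction of both medians held under each of the 5 scalings, but with spike scaling 1 replication gene and 2 cell-cycle genes were called lower, and without Molt-3 the counts were 9 and 3. The cell-cycle count was 4 without FE-PD or CCRF-CEM and 5 without JB6, SU-DHL-1 or Molt-4. In whole-culture RNA, fewer dividing cells and less of a transcript per cell cannot be told apart.

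GINS2, a subunit of the replicative helicase, stood at 7.55 in FE-PD, 7.16 in JB6, 7.22 in SU-DHL-1 and 7.63 in Karpas 299, and in T-cell lines at 9.14 in CCRF-CEM, 9.02 in Jurkat, 9.40 in Molt-3 and 8.96 in Molt-4. The groups were narrow and did not overlap (-1.74 ± 0.17, adjusted p = 0.00122), where the untreated difference was -0.21 ± 0.27 (interaction -1.53 ± 0.30, adjusted p = 0.0363). MCM10, which helps to start forks, was 5.07-fold lower (-2.34 ± 0.25; interaction -1.56 ± 0.27). PCNA, the sliding clamp, stood at 10.84 in FE-PD, 10.18 in JB6, 10.37 in SU-DHL-1 and 10.02 in Karpas 299 against 12.19 in CCRF-CEM, 12.07 in Jurkat, 12.56 in Molt-3 and 12.11 in Molt-4 (-1.88 ± 0.21; interaction -1.23 ± 0.20, adjusted p = 0.0165). UNG, which removes uracil from DNA, was 3.49-fold lower (interaction -1.35 ± 0.27). TYMS, which makes thymidylate and was picked after its values were seen, was 4.15-fold lower (interaction -1.80 ± 0.27, adjusted p = 0.0116); its second probe set differed by -0.21 and was not called. RRM2, the ribonucleotide reductase subunit, overlapped between the groups and was not called (-1.59 ± 0.51, adjusted p = 0.148), although its interaction was (-2.46 ± 0.46, adjusted p = 0.0287). The interaction of TYMS was called whichever line was left out. That of PCNA was lost without Molt-3, that of MCM10 without FE-PD, JB6 or Molt-3, and those of GINS2, UNG and RRM2 without any of 6 or 7 lines, Molt-4, Molt-3, SU-DHL-1 and JB6 among them.

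Among mitotic genes, CDK1, the kinase that starts mitosis, was 3.23-fold lower (-1.69 ± 0.21, adjusted p = 0.00397). KIF11, a spindle motor, stood at 5.12 to 5.76 against 6.99 to 8.69 (-2.45 ± 0.33), and MAD2L1, a spindle checkpoint protein, at 5.51 to 6.91 against 8.17 to 9.57 (-2.53 ± 0.36). CENPU, a centromere protein that is not in the cell-cycle list, was 4.99-fold lower (adjusted p = 0.000986). Its interaction was -1.21 ± 0.19, lost without Molt-3. The chromatin protein HMGB2 was 5.47-fold lower (adjusted p = 0.018, lost without JB6 or Molt-3). CDKN1A, the p21 inhibitor of cyclin-dependent kinases, was higher in ALCL lines, at 11.51 in FE-PD, 11.07 in JB6, 11.48 in SU-DHL-1 and 10.04 in Karpas 299 against 8.97 in CCRF-CEM, 9.40 in Jurkat, 8.88 in Molt-3 and 8.45 in Molt-4 (2.10 ± 0.34, adjusted p = 0.013, lost without Molt-3). Its untreated difference was 1.99 ± 0.63, not called (adjusted p = 0.0917), and the interaction 0.11 ± 0.41. MYC differed by 1.59 ± 0.44 without a call (adjusted p = 0.102), and the histone H2AX, which marks DNA breaks, was 3.98-fold lower (adjusted p = 0.0352, lost without any of 7 lines), by 1 of its 4 probe sets, the others as small as -0.027.

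The T-cell lines differed among themselves in these genes. CCRF-CEM had the highest treated value of the T-cell lines at 36 of 41 cell-cycle genes (87.8%) and 25 of 44 replication genes (56.8%), where over all genes it was highest at 20.4%. Molt-4 had the lowest at 33 (80.5%) and 28 (63.6%), against 30.1% over all genes. The mean of the cell-cycle list was 9.23 in CCRF-CEM, 8.23 in Jurkat, 8.32 in Molt-3 and 7.84 in Molt-4, and in ALCL lines 7.48 in FE-PD, 7.15 in JB6, 7.18 in SU-DHL-1 and 7.77 in Karpas 299. Untreated means were 8.62 to 9.35 in ALCL and 9.46 to 9.73 in T-cell lines, also without overlap.

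**Figure D4:**
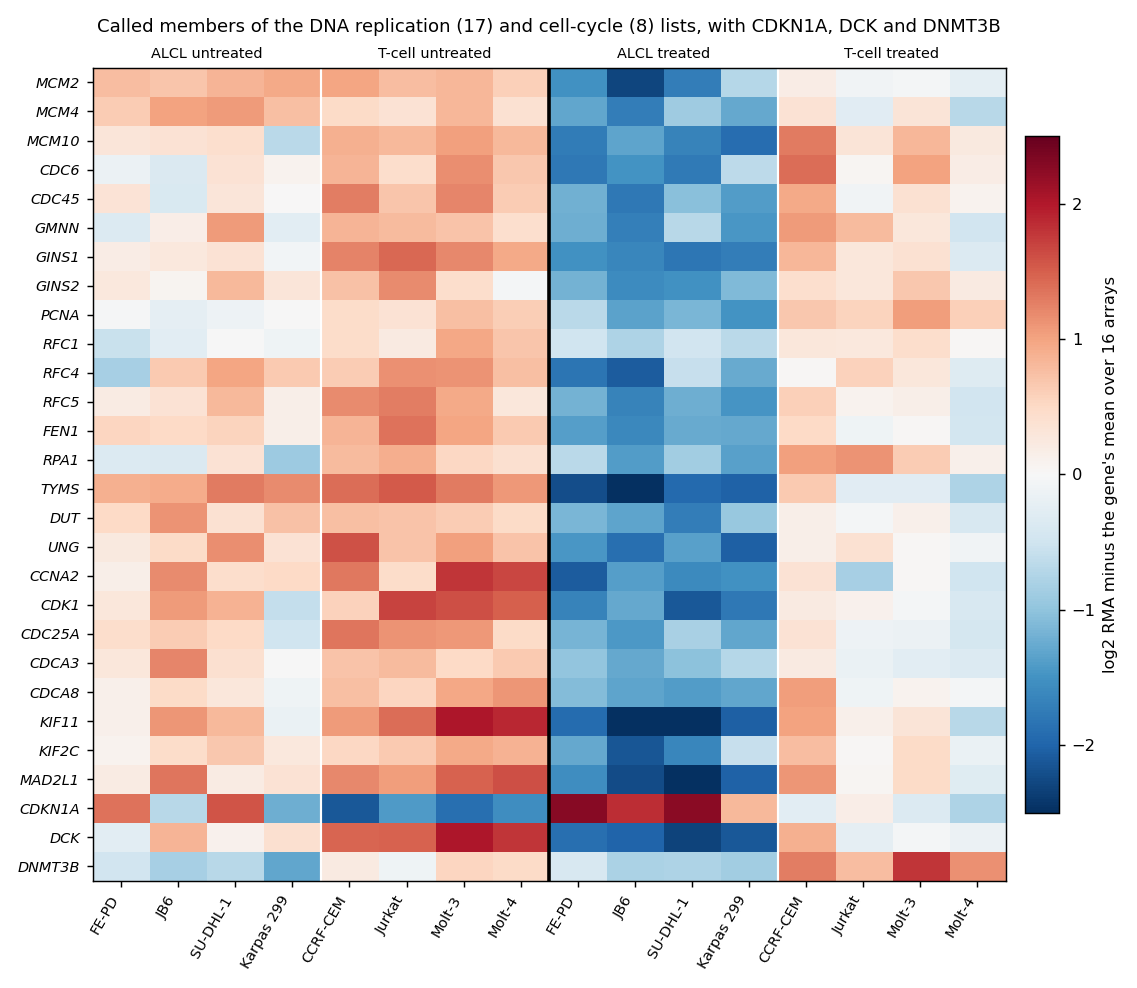
Each row is 1 of the 17 replication and 8 cell-cycle genes called in treated lines, or CDKN1A, DCK or DNMT3B, and each column 1 array; colour is the log2 RMA value minus the gene's mean over the 16 arrays and saturates at 2.5 either way. The 4 treated ALCL columns are blue for nearly every replication and cell-cycle gene, treated CCRF-CEM is the reddest of the treated columns, and CDKN1A is red in treated ALCL.

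Of the genes that handle or meet the drugs, 3 were called. DCK, the deoxycytidine kinase that activates 5-aza-2'-deoxycytidine, was lower in treated ALCL, at 4.52 in FE-PD, 4.40 in JB6, 4.10 in SU-DHL-1 and 4.29 in Karpas 299 against 7.29 in CCRF-CEM, 6.19 in Jurkat, 6.35 in Molt-3 and 6.27 in Molt-4 (-2.20 ± 0.25, adjusted p = 0.00241). It was already lower untreated by 2.66-fold (interaction adjusted p = 0.398). DNMT3B, a DNA methyltransferase that sets new marks, was 3.88-fold lower (-1.95 ± 0.22, adjusted p = 0.00243; -1.10 ± 0.21 untreated). DNMT1, which copies methylation at the fork, differed by -1.20 ± 0.40 (adjusted p = 0.167) and the deacetylase HDAC1 by -1.06 ± 0.27 (adjusted p = 0.0798), both uncalled. HDAC6, a deacetylase of the cytoplasm, was called lower by -0.83 ± 0.18 (adjusted p = 0.04). That call was lost without any 1 line but FE-PD or Karpas 299, and with the mean of its 3 probe sets, which ranged from -0.83 to -0.082. In all 1 of 11 methylation genes (9.09%), 1 of 14 deacetylases (7.14%) and 1 of 12 nucleoside genes (8.33%) were called, each lower, against 2.88% over all genes, with list medians of -0.05, -0.19 and 0.01; with spike scaling the first 2 medians turned to 0.37 and 0.23.

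Some interferon and MHC class I genes were higher in treated ALCL, where 2.88% of all genes were called either way. Of 32 measured interferon-stimulated genes 7 (21.9%) were higher and 0 lower (14 and 1 at an unadjusted p below 0.05; median 0.69, untreated 0.45, range -1.41 to 3.21), and the count fell to 3 without Molt-4, Molt-3 or Jurkat. IFI35, a partner of interferon-induced factors, was 4.92-fold higher, and BST2, which tethers budding virus, 4.67-fold higher at 9.26 in FE-PD, 9.97 in JB6, 9.05 in SU-DHL-1 and 10.53 in Karpas 299 against 7.65 in CCRF-CEM, 7.68 in Jurkat, 7.42 in Molt-3 and 7.16 in Molt-4. IFITM2, an antiviral membrane protein whose family members are nearly identical and can share probes, was 6.6-fold higher (adjusted p = 0.021, lost without Molt-4, Molt-3 or Jurkat). Of 12 measured MHC class I genes 4 were higher and 0 lower (9 and 0 at an unadjusted p below 0.05; median 1.32), with 1 left without CCRF-CEM, Molt-3 or Molt-4, and 2 without JB6 or Jurkat. HLA-E, the ligand of an inhibitory NK receptor, stood at 11.01 to 11.98 against 9.14 to 9.94 (1.92 ± 0.27, adjusted p = 0.00688); MHC probes can also bind related loci.

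MHC class II genes divided the ALCL lines. HLA-DPA1, a class II alpha chain, stood at 11.67 in FE-PD, 11.26 in JB6, 7.90 in SU-DHL-1 and 12.82 in Karpas 299, with T-cell lines at 6.21 to 6.90. SU-DHL-1 was the low ALCL line, and the difference was 4.47 ± 0.87 (adjusted p = 0.029, lost when any 1 of 7 lines other than SU-DHL-1 was left out). CD74, the invariant chain, stood at 12.69 in FE-PD, 11.49 in JB6, 6.53 in SU-DHL-1 and 13.73 in Karpas 299 against 6.88 to 7.005, and HLA-DRA at 10.96 in FE-PD, 10.80 in JB6, 6.72 in SU-DHL-1 and 12.90 in Karpas 299. SU-DHL-1 lay below every T-cell line for CD74, and neither gene was called (adjusted p = 0.139 and 0.0957). HLA-DQA1 was high in JB6 and Karpas 299 (9.40 and 10.97) and at 5.76 and 6.10 in FE-PD and SU-DHL-1. The mean of the 12 measured class II genes was 8.94 in FE-PD, 9.90 in JB6, 7.27 in SU-DHL-1 and 10.86 in Karpas 299, against 7.04 to 7.29 in T-cell lines. Of the 12, 1 (8.33%, against 2.88% of all genes) was called, higher, with a list median of 2.11.

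As a comparison for the lists that follow, limma called 2.88% of all 11963 genes either way, with a median difference of -0.03. At an unadjusted p below 0.05, 831 of all genes were higher and 1067 lower. Annexins and S100 proteins, calcium-binding proteins of membranes and the cytoskeleton, had 4 of 21 members called higher and 0 lower (11 and 0 at an unadjusted p below 0.05). Their median was 1.13 and their untreated median 0.21. ANXA2 stood at 12.30 in FE-PD, 12.41 in JB6, 12.15 in SU-DHL-1 and 12.63 in Karpas 299 against 10.49 in CCRF-CEM, 10.16 in Jurkat, 9.70 in Molt-3 and 9.50 in Molt-4, 5.3-fold higher (adjusted p = 0.00119). S100A11 was 14-fold higher and varied more, at 9.52 to 11.76 and 5.56 to 7.97. Of 32 hypoxia and glycolysis genes 4 (12.5%) were called higher and 0 lower (11 and 0 at an unadjusted p below 0.05). Their median was 0.41, untreated 0.62. SLC2A3, a glucose transporter, was 5.81-fold higher and LDHA, which turns pyruvate into lactate, 2.56-fold higher, at 12.75 to 13.12 against 11.35 to 11.85. Of 25 interleukin and cytokine receptors, 4 (16%) were called higher and 0 lower, with 1 left without CCRF-CEM, Molt-3 or Molt-4 and 2 without SU-DHL-1 or Jurkat. At an unadjusted p below 0.05, 12 of the 25 were higher and 0 lower, and the list's median was 0.98.

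Gene families that such drugs are known to wake had counts near or below the 2.88% called over all genes, which is no result about the families. In limma 0 of 22 measured cancer-testis antigens, 0 of 18 germline genes and 0 of 10 metallothioneins were called; at an unadjusted p below 0.05 there were 1 higher and 2 lower, 0 and 3, and 0 and 0. Of 35 histone genes 1 (2.86%) was called, H2AX. The mean of the cancer-testis list was 6.57 to 7.06 in treated ALCL lines and 6.52 to 7.43 in treated T-cell lines, where the 8 untreated arrays lay between 5.33 and 6.13. That of the metallothioneins, which bind zinc and copper, was 9.55 to 11.05 and 9.19 to 10.91.

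Markers of other cell types were checked in the same way. Of 16 B-cell, 24 myeloid, 12 NK-cell, 19 erythroid and megakaryocyte, 21 epithelial, 31 mesenchymal, 32 neuronal and 10 endothelial genes measured, CSF1R, the myeloid growth factor receptor, was higher in treated ALCL (adjusted p = 0.0177, lost without CCRF-CEM) and 1 neuronal gene, INA, was lower. In limma 0 genes of the other 6 lists were called; at an unadjusted p below 0.05 these held 6 higher and 2 lower. CSF1R stood at 9.43 in FE-PD, 9.28 in JB6, 8.29 in SU-DHL-1 and 8.60 in Karpas 299 against 6.83 in CCRF-CEM, 6.52 in Jurkat, 7.46 in Molt-3 and 7.51 in Molt-4. The mean of the 24 myeloid markers was 6.00 to 6.51 in ALCL and 5.88 to 6.12 in T-cell lines, overlapping ranges. Of the 24, 17 differed upward, 3 were higher and 0 lower at an unadjusted p below 0.05, and 3 did not overlap, each higher in ALCL (where 10.1% of all genes did not overlap). The highest difference was that of S100A9, a calcium-binding protein of neutrophils and monocytes, which was not called (1.93 ± 0.45, adjusted p = 0.0595; 0.17 ± 0.09 untreated), with ALCL lines at 5.52 to 7.81 and T-cell lines at 4.75 to 5.41. The defining markers CD14 and LYZ differed by 0.12 and 0.0080, and MPO by -0.15, the lowest of the list. The part of other cell types in the results above was not tested further.

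Some of the widest variation lay within a cell type. TM4SF1, a membrane protein of epithelia and endothelium, stood at 6.12 in FE-PD, 6.48 in JB6, 12.09 in SU-DHL-1 and 6.996 in Karpas 299, and FGG, a fibrinogen chain, at 4.80 in FE-PD, 5.10 in JB6, 9.95 in SU-DHL-1 and 5.24 in Karpas 299. Both were high in SU-DHL-1 alone among the 8 treated arrays. In the T-cell group CCRF-CEM and Jurkat parted from Molt-3 and Molt-4. EIF5A, a translation factor, stood at 11.13 in CCRF-CEM, 11.36 in Jurkat, 7.71 in Molt-3 and 6.50 in Molt-4, DHRS2, a short-chain dehydrogenase, at 13.76 in CCRF-CEM, 13.29 in Jurkat, 10.45 in Molt-3 and 10.55 in Molt-4, and TUBB2B, a tubulin, at 8.56 in CCRF-CEM, 8.06 in Jurkat, 5.36 in Molt-3 and 5.04 in Molt-4. CCRF-CEM and Jurkat were the high pair for each. CXCL11, a chemokine induced by interferon, stood at 7.18 in CCRF-CEM, 8.29 in Jurkat, 4.91 in Molt-3 and 4.55 in Molt-4, CSTA, cystatin A, at 7.48 in CCRF-CEM, 9.45 in Jurkat, 5.72 in Molt-3 and 5.64 in Molt-4, and NAALAD2, a peptidase, at 9.19 in CCRF-CEM, 5.80 in Jurkat, 4.18 in Molt-3 and 4.27 in Molt-4. The 28S control stood at 7.52 and 8.15 on the first pair of arrays and 14.3 and 14.2 on the second; its part in this split was not tested. None of these 8 genes was called between the cell types, and all were chosen for their spread. Correlations over all genes between treated arrays ran from 0.907 to 0.937 within ALCL, from 0.933 to 0.979 within T-cell lines and from 0.871 to 0.928 between the types, as a description.

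**Figure D5:**
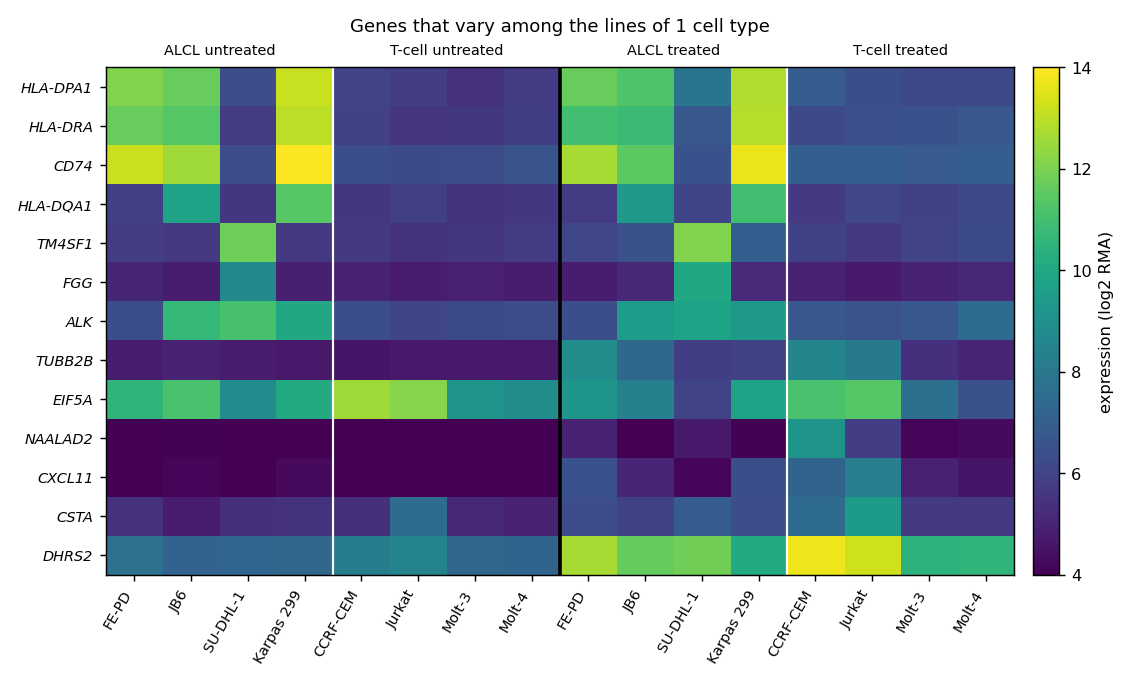
Expression (log2 RMA, colour, from 4 to 14) of 13 genes in rows on the 16 arrays in columns. Among treated ALCL lines, HLA-DPA1, HLA-DRA and CD74 are brighter in FE-PD, JB6 and Karpas 299 than in SU-DHL-1. HLA-DQA1 is bright only in JB6 and Karpas 299 of these lines. TM4SF1 and FGG are bright in SU-DHL-1. DHRS2, EIF5A, TUBB2B, CXCL11, CSTA and NAALAD2 are brighter in treated CCRF-CEM and Jurkat than in treated Molt-3 and Molt-4. NAALAD2 is bright mainly in CCRF-CEM.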

How the data were processed

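The data are 16 Affymetrix arrays, 1 per cell line and condition. The values are log2 expression as deposited by the authors, made with RMA under R version 2.10.1, as listed per the submitters' processing notes, without its parameters. RMA equalises the distribution of the arrays, which can hide a change shared by most genes. Of 22283 probe sets, 19065 had 1 gene symbol in GEO's platform annotation, 1043 several and 2107 none, and 68 were controls. For the 4310 genes with several probe sets the one with the highest mean was used, giving 11963 genes, 11954 of them listed in RefSeq. No filter on low values was applied, and the number of arrays, not read depth, limits the precision.

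Groups were taken from the labels. Treated ALCL and treated T-cell arrays were compared with limma 3.58.1 in R 4.3.3 (lmFit and eBayes on the 8 arrays), with Benjamini-Hochberg adjustment over all genes and a threshold of 0.05. The interaction was fitted on 16 arrays, each line a block, since each line was hybridised both untreated and treated. The steps were tested on simulated data. Standard errors follow ±. Folds are 2 to the power of the log2 difference. Spike scaling centred each array on 18 hybridisation control probe sets.

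The genes named were the 15 highest and 15 lowest called genes without overlap, up to 4 per list over 44 lists, 10 interaction genes each way, 6 variable genes per group, and a set always reported; those whose values added nothing are not printed. The members and lists were chosen with earlier results of these data known. Alternatives changed the line block, the probe set rule, a filter, the scaling, the variance model and the lines included. Promoter windows came from RefSeq (GRCh38.p14) by symbol.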

Additional observations from a re-analysis of the deposited data

Results flagged for a closer look

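In 10 of 202 groups of 4 lines checked (4.95%), 1 line stood far from the other 3; chance alone flags about 1 in 20 such groups. SU-DHL-1 was the high ALCL line for TM4SF1 (12.1, the others 6.12 to 6.996) and FGG (9.95, the others 4.80 to 5.24) and the low one for LGALS1 (11.2, the others 12.4 to 12.7). FE-PD was low for ALK (6.41, the others 9.43 to 9.78) and high for ITM2A (8.98, the others 7.70 to 7.87), and Karpas 299 was high for HMGB2 (8.43, the others 7.20 to 7.40). Among T-cell lines CCRF-CEM was high for IFITM2 (9.69, the others 8.17 to 8.34) and for DCK (7.29, the others 6.19 to 6.35) and low for PERP (4.96, the others 5.22 to 5.27). Molt-3 was low for CD74 (6.88, the others 6.98 to 7.005).

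For 36 printed genes the ALCL minus T-cell difference moved with treatment, by the interaction test in limma at an adjusted p below 0.05. It moved up by 3.88 for LCK, 3.80 for ADA, 3.73 for TRAT1, 3.42 for TOX, 2.74 for RAG1, 2.61 for BCL11B, 2.49 for CD3G and 1.93 for CD3E, genes of the T-cell programme. It moved up by 3.21 for GNA15, 3.13 for ALDH1A2, 2.22 for TSPAN7 and 1.80 for FAT1, which had also been lower in untreated ALCL. Among genes higher in treated ALCL it moved up by 4.61 for AGT, 4.33 for SPP1, 2.96 for SLPI, 2.59 for IFI16, 1.95 for CD44, 1.66 for S100P and 1.28 for ZFP36. That of ZFP36 was lost with spike scaling and without FE-PD, JB6, Karpas 299, Jurkat, Molt-3 or Molt-4.

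The difference moved down, by -3.71 for CACNA2D3, -3.66 for IL2RA, -3.61 for GAS1, -3.43 for CYTIP, -3.25 for IL26, -2.80 for LGALS1, -2.76 for APOBEC3B, -2.65 for TNS3, -2.56 for TNFRSF8 and -2.25 for IL2RB, genes that had been higher in untreated ALCL. Among replication and division genes it moved by -2.46 for RRM2, -1.80 for TYMS, -1.56 for MCM10, -1.53 for GINS2, -1.35 for UNG, -1.23 for PCNA and -1.21 for CENPU.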

How the results depend on the processing

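None of the 63 called differences printed for treated lines and none of the 36 interactions changed sign under an alternative that gave it a value. They were picked as called on these same arrays, so this says little about how firm they are. Of the 63, 49 stayed called with spike scaling, 53 with Molt-3 and Molt-4 as 1 line and 41 in lines with the 28S rise. Of the 36 interactions these settings kept 24, 25 and 30, and a fit with no replicate block kept 23. The 345 genes called in treated lines (162 higher and 183 lower in ALCL) became 588 (350 lower) in a fit of all 16 arrays without a line block, 585 (248 and 337) with the line as a random block and 1216 (622 and 594) with array weights. With 75th percentile scaling 251 were higher, and with spike scaling 272 were higher and 21 lower. The count was 181 (86 and 95) with Molt-3 and Molt-4 as 1 line, 98 (69 and 29) in lines with the 28S rise and 152 (20 lower) in lines without it, where ALCL is Karpas 299 alone, assumed to vary like the T-cell lines. Leaving out 1 line gave 130 to 348 (70 to 186 higher, 60 to 186 lower). For the interaction the 201 genes (133 up and 68 down) became 62 (47 and 15) with no replicate block, 64 (49 and 15) with spike scaling, 74 (57 and 17) with Molt-3 and Molt-4 as 1 line and 0 (0 and 0) in lines without the 28S rise; 127 moved down with 75th percentile scaling, which took the median of all genes from -0.05 to -0.15. Leaving out 1 line gave 67 to 195 (57 to 143 up, 10 to 72 down). Differences that were not called turned sign at 12 genes, with adjusted p of 0.0743 or more. With spike scaling RAG1 became 0.18, TRAT1 0.025 and ZAP70 0.21. In lines without the 28S rise ADA became 0.25, ZAP70 0.16 and TUBB2B -2.34. In lines with it GNA15 became -0.15, ALDH1A2 -0.15, EIF5A 0.80, NAALAD2 0.36, CXCL11 0.53, CSTA 0.72 and DHRS2 1.55. With array weights GNA15 became -0.057, ALDH1A2 -0.21, EIF5A 0.066, CXCL11 0.22, CSTA 0.43 and DHRS2 0.66. ALDH1A2 became -0.64 with the mean of its probe sets, and TUBB2B -0.25 with Molt-3 and Molt-4 as 1 line. Leaving out 1 line gave -0.062 to 0.71 for GNA15, -0.011 to 0.24 for ALDH1A2, -0.35 to 0.87 for TUBB2B, -1.16 to 0.11 for CSTA, -0.97 to 0.14 for DHRS2 and -0.33 to 0.017 for ZAP70. The cause of these changes was not tested. With 4 lines a type and 1 array a line, culture and array error cannot be told apart.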
